A study of Rattus norvegicus with 180 samples.

Results

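The miR-34 and miR-449 family was followed in the rat by 5 microarray features, rno-miR-34a, rno-miR-34b, rno-miR-34b_v15.0, rno-miR-34c and rno-miR-449a, out of the 717 miRNAs on the array. They were taken by name. The array also held 6 other arms and relatives, which were rno-miR-34a*, rno-miR-34b*, rno-miR-34c*, rno-miR-449a*, rno-miR-449c-5p and rno-miR-449c-3p. Total RNA came from male Sprague-Dawley rats of 10 weeks under ether anesthesia, with no genetic change or test compound named. Organs of 3 animals (rats 4, 5 and 6) were taken after perfusion with saline, which washes blood out of the vessels, and gave 55 organs each. From 3 further animals (rats 1, 2 and 3), which were not perfused, liver, kidney, lung, heart atrium and heart interventricular septum were taken. Each array measured the bulk RNA of 1 organ of 1 rat, so that more cells of a kind and more RNA per cell cannot be told apart. The levels are given in the order rat 4, rat 5 and rat 6 as background-corrected fluorescence, scaled on each array by the 75th percentile of the 37 miRNAs detected on every array. They are in arbitrary units, which compare 1 miRNA between organs but not 2 miRNAs with each other, because each probe has its own brightness.

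MicroRNAs are short RNAs that guide Argonaute proteins to messenger RNAs, mainly through the seed, bases 2 to 8 of the mature strand. The miR-34 and miR-449 families share their seed, and with it most predicted targets, many of which drive the cell cycle. miR-34a is made from a gene of its own and is induced by p53, while miR-34b and miR-34c are cut from 1 shared transcript. miR-34b, miR-34c and miR-449 are known from male germ cells and from multiciliated cells, which line the airways, the efferent ducts of the testis and the ventricles of the brain. Mice that lack miR-34b, miR-34c and the miR-449 cluster together form few motile cilia and are infertile.

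The mature sequences are shown to make visible how alike the members are, since an array tells them apart by these bases alone. The array's names without an asterisk were matched by name to the 5p strands of RefSeq (assembly GRCr8), and capitals mark the seed.
rno-miR-34a-5p: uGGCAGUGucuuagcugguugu
rno-miR-34b-5p: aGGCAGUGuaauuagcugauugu
rno-miR-34c-5p: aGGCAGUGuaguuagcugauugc
rno-miR-449a-5p: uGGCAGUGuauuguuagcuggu
rno-miR-449c-5p: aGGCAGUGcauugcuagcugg
The seed GGCAGUG stood in these 5 sequences and in no other of the 693 mature rat names of that table (0.722%). miR-34b-5p and miR-34c-5p were identical at 21 of 23 bases and differed by the substitutions A11G and U23C, counted from 1 at the 5′ end with the base of miR-34b-5p first. In global alignments miR-34a-5p matched miR-34b-5p at 19 of 23 aligned positions, miR-34c-5p at 18 of 23 and miR-449a-5p at 17 of 23. miR-449a-5p matched miR-449c-5p at 18 of 22. The bases of the array probes were not used here. Whether the probes of miR-34b and miR-34c also bind the other strand was not tested, and the printed miR-34b-5p stands for both features of that name, rno-miR-34b and rno-miR-34b_v15.0.

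In GRCr8 the hairpin of Mir34a lay at chr5:165815952-165816053 on the plus strand, inside the span of the long non-coding RNA LOC103692514. Mir34b lay at chr8:60306609-60306692 and Mir34c at chr8:60306091-60306167, both on the minus strand, with 441 bases between them. Both fell within the span of the protein-coding gene Hoatz, and Btg4 was the next gene, 397 bases from Mir34b. Mir449a lay at chr2:46403910-46404000 and Mir449c at chr2:46402375-46402473 on the plus strand, 1436 bases apart and within the span of the long non-coding RNA LOC134485839. Exons and introns of these host genes were not used here.

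The 180 arrays lay on 23 slides and were scanned on 3 days, and 0 spots were saturated. Between 86 and 244 of the 717 miRNAs were detected per array (median 161.5), where detected means that over 50% of the spots used for a miRNA were well above background. Values under 10.8, the floor, were raised to it before log2 was taken and have no order among each other. For 8 arrays (medulla oblongata, pituitary gland, the 3 levels of the cord and the 3 limb muscles) the labels give rat 5 in one place and rat 6 in another, which leaves their organ means as they are. The sample titles, which give rat 5, were followed. If rat 6 is right, these organs have no array of rat 5 and their SDs are not over 3 separate rats. In testis, trachea, lung and epididymis, the organs compared in detail, rats 4, 5 and 6 were scanned on 3 different days, so that rat and scan day cannot be told apart. The multiplication that scaling applied to these arrays differed between organs, from 2.87 to 3.92 in testis, 1.39 to 1.82 in epididymis, 0.495 to 0.731 in trachea and 0.334 to 0.421 in lung. On average this added 3.17 log2 units to every difference of testis minus lung, 2.58 to testis minus trachea and 1.07 to testis minus epididymis.

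miR-34a was found in every organ, whereas the other members were found in fewer organs. With detection on all 3 arrays the counts for miR-34b, miR-34b_v15.0, miR-34c and miR-449a were 12, 14, 12 and 3 organs, and by the scanner's own detection call they were 29, 25, 25 and 10. miR-34a was detected on all 3 arrays in 55 of 55 organs, and its organ means spanned 304-fold, from rectum to testis. Its mean was above 1000 in 8 organs, between 100 and 1000 in 37 and under 100 in 10, with a median of 215. Testis was highest, at 5541, 5116 and 7201 in rats 4, 5 and 6, and all 3 values lay above every value of any other organ. Medulla oblongata followed at 3143, 3321 and 3955, which was 1.71-fold lower in the mean.

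Organs of the nervous system held most of the next places for miR-34a. Means ± SD (n = 3 arrays throughout, with rats as in the sample titles) were 3473 ± 427 in medulla oblongata, 3292 ± 331 in cervical, 2604 ± 1222 in lumbar and 2407 ± 629 in pectoral spinal cord, and 1146 ± 133 in cerebellum. The other parts of the brain were lower, with 564 ± 450.2 in hippocampus, 402 ± 119 in cerebral cortex and 387 ± 18.5 in thalamus. Hindbrain and cord thus stood above the cerebrum in the means. The ischial nerve was at 367 ± 16.6, the optic nerve at 200.0 ± 27.2, the eyeball at 166 ± 24.3 and the pituitary gland at 121 ± 3.21. The 3 hippocampi read 1039, 143 and 511, which was the widest spread of any organ for miR-34a (coefficient of variation 79.8%, against a median of 14.3% over the 55 organs). Lumbar cord of rat 4 stood apart in the same way, with 1203, 3450.1 and 3159.5 in rats 4, 5 and 6.

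Among secretory and metabolic organs miR-34a was bright in pancreas (1512 ± 524) and brown adipose tissue (1265 ± 174), and in adrenal gland (678 ± 50.0), parotid gland (560.2 ± 204) and white adipose tissue (503 ± 36.9) at a middle level. Thyroid gland (186 ± 58.9), sublingual gland (178 ± 35.8), mandibular gland (132 ± 9.45), harderian gland (99.3 ± 29.4), liver (99.9 ± 14.7) and kidney (72.7 ± 10.4) were dimmer. The pancreas arrays were multiplied 17.5-fold to 31.1-fold in scaling, and the rank of pancreas for miR-34a moved from 6 to 28 with scaling over all miRNAs, 18 in the authors' table and 46 without scaling. The salivary glands spanned from parotid to mandibular gland without an overlap of their 3 rats. Their scaling factors also differed, at 2.00 to 6.30 in parotid, 0.346 to 2.24 in sublingual and 1.43 to 2.71 in mandibular gland. Esophagus (563 ± 183), tongue (215 ± 9.99) and anterior stomach (170.1 ± 17.4) stood above glandular stomach (43.0 ± 16.1). Along the intestine the levels were 66.6 ± 17.7 in duodenum, 39.9 ± 10.9 in jejunum, 36.8 ± 10.0 in ileum, 115 ± 17.8 in cecum, 79.6 ± 8.05 in colon and 19.6 ± 6.36 in rectum. Rectum was the lowest of all 55 organs, with 15.5, 16.4 and 26.9, and its highest rat lay under the lowest rat of ileum.

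In immune organs miR-34a was at 431 ± 31.8 in thymus, 365 ± 41.3 in spleen, 304 ± 63.5 in bone marrow, 215 ± 10.69 in mesenteric and 196 ± 48.4 in cervical lymph node. In heart and muscle it was at 261 ± 46.5 in heart atrium, 260.3 ± 48.4 in the septum of the heart, 252 ± 28.8 in femoris, 152 ± 19.8 in gastrocnemial and 128 ± 8.06 in soleus muscle. The sample labelled interseptum was at 240.0 ± 31.7, vein at 313 ± 76.0 and aorta at 103 ± 44.2. Bladder was at 191 ± 26.3 and skin at 152 ± 18.2. In male accessory organs miR-34a was 492 ± 80.3 in epididymis, 144 ± 34.4 in ventral prostate, 108 ± 8.43 in the other prostate and 53.7 ± 1.58 in seminal vesicle, and in the airways 714 ± 39.7 in lung and 111 ± 9.07 in trachea. When the organs were put in order of their means, only 3 of the 54 pairs of neighbours had values that did not overlap, which were testis over medulla oblongata, cerebellum over lung and ileum over rectum.

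**Figure D1:**
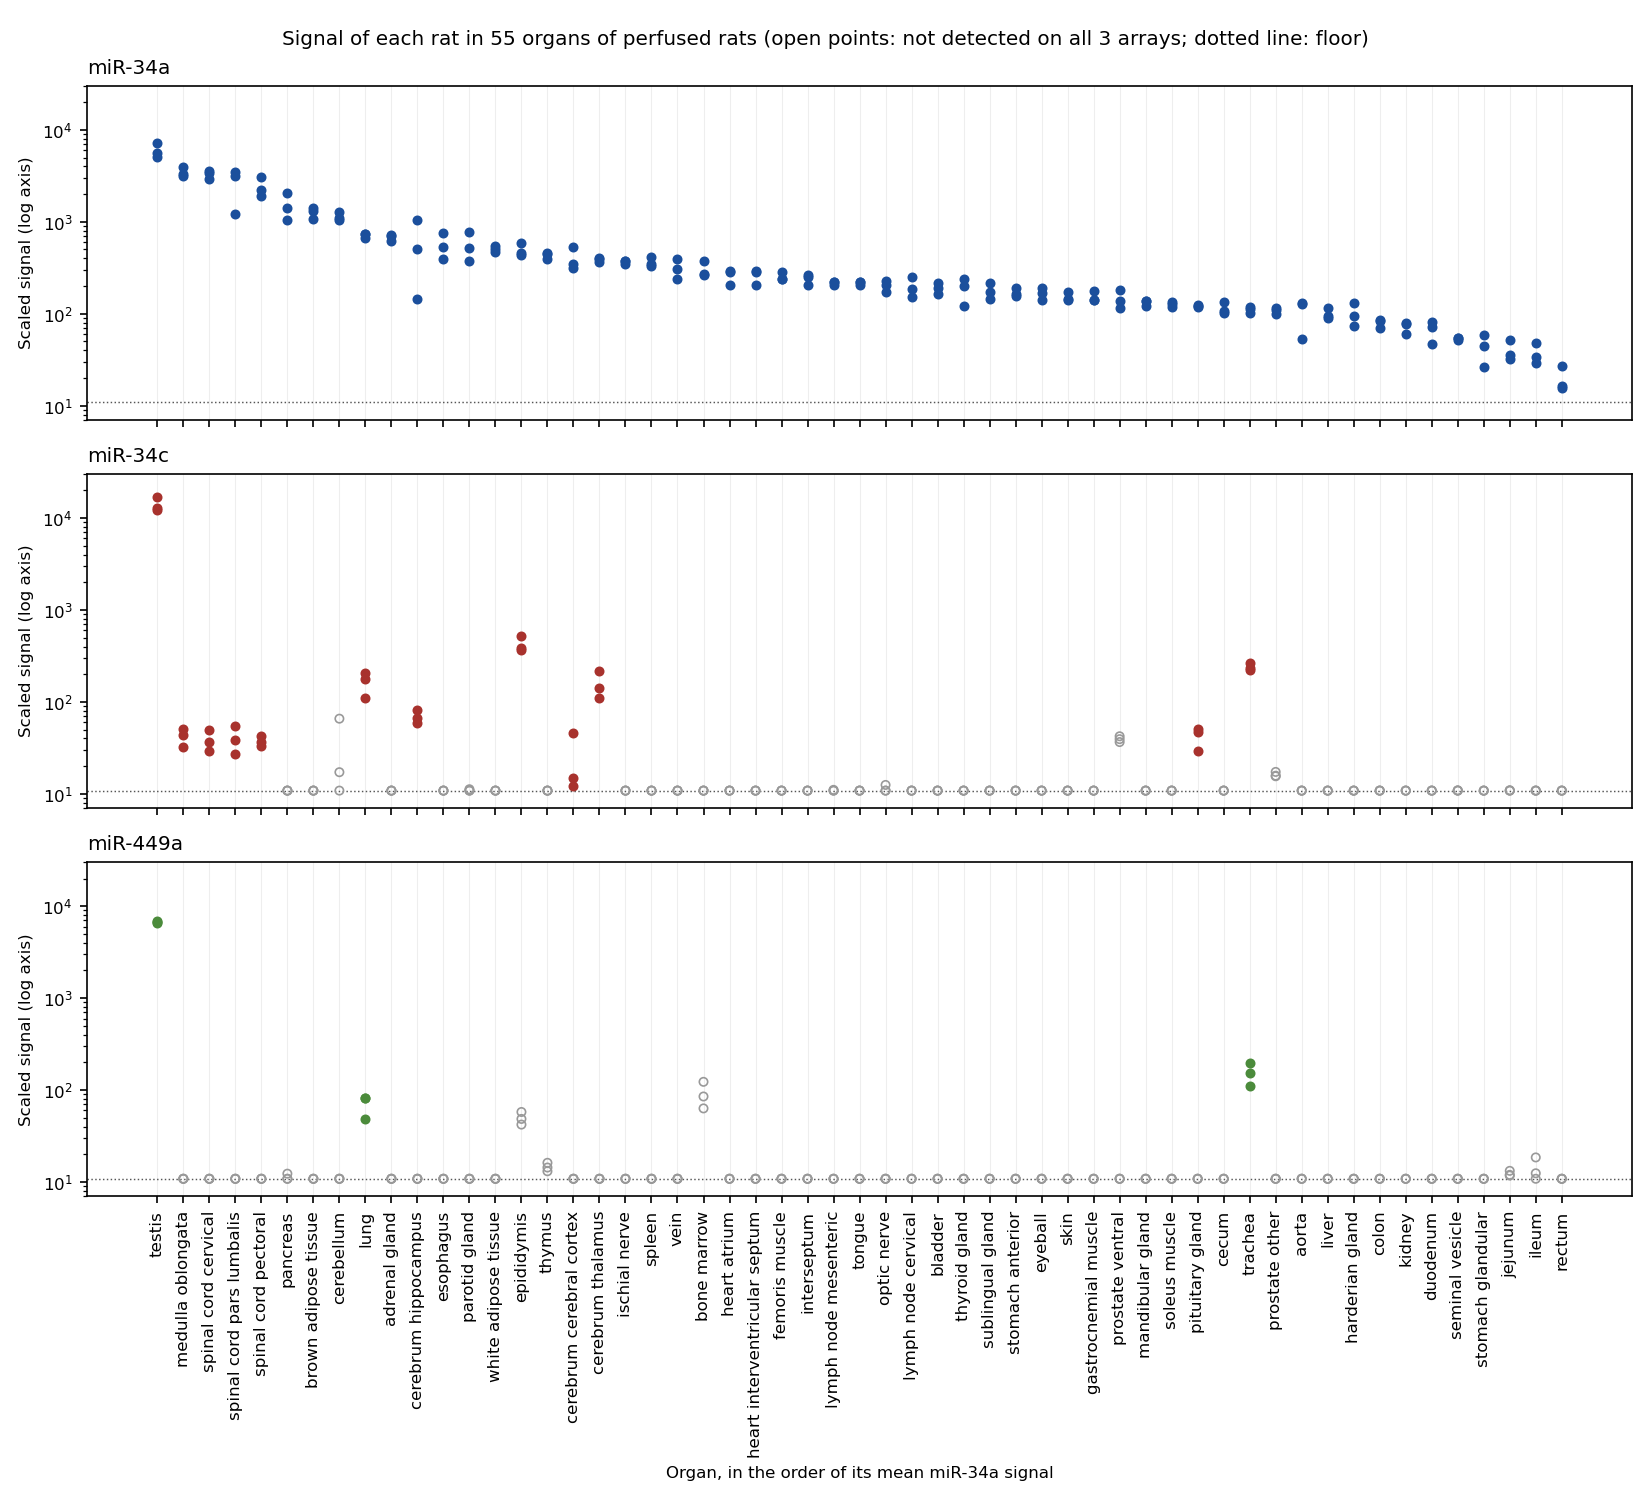
Scaled signal (log axis, arbitrary units) of miR-34a, miR-34c and miR-449a in the 55 organs of perfused rats, 1 point per rat, with organs in the order of their mean miR-34a signal; open points mark organs where the miRNA was not detected on all 3 arrays, and values under the floor are drawn at the floor (dotted line). miR-34a is above the floor in 55 organs, while miR-34c is detected on all 3 arrays in 12 and miR-449a in 3, with testis far above the others in both.

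The places of testis as first and rectum as last organ for miR-34a rested on the scaling. Rectum took rank 53 of 55, above ileum as the last, when arrays were scaled over all miRNAs and in the authors' table, and rank 49 without scaling, where jejunum was last. Testis was also first when arrays were scaled over all miRNAs and in the authors' normalized table. Without any scaling medulla oblongata was first and testis took rank 7, an alternative chosen after the data were seen. For miR-34b, miR-34b_v15.0, miR-34c and miR-449a testis was first in every one of these settings.

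miR-34b and miR-34c were concentrated in testis. miR-34c read 12362, 12903 and 16949.9 there, and the next organ, epididymis, was 33.4-fold lower in the mean with 381, 517 and 367. Testis held 90.04% of the sum of the 55 organ means of miR-34c, 88.2% for miR-34b and 89.5% for miR-34b_v15.0, against 18.1% for miR-34a. The testis values were 13266, 11346 and 15282 for miR-34b and 17741, 18272 and 23029.6 for miR-34b_v15.0. Here too epididymis was second, 28.1-fold and 30.7-fold lower. The second place rested on the scaling for all 3 features. With scaling over all miRNAs lung was second for each, 3.55, 3.76 and 4.00 log2 units under testis for miR-34b, miR-34b_v15.0 and miR-34c. In the authors' table trachea was second, by 4.00, 4.24 and 4.44, and without scaling lung was second for the features of miR-34b (2.83 and 3.04) and trachea for miR-34c (3.27). miR-34c was detected on all 3 arrays in 12 organs, on some in 7 and on none in 36. For miR-34b these counts were 12, 9 and 34, and for miR-34b_v15.0 they were 14, 12 and 29. In organs where a member was detected on no array only a bound can be given, taken against the highest of the floor, the dimmest miRNA detected on that array and the member's own reading. There testis was at least 72.8-fold to 1286-fold higher for miR-34c (36 organs), at least 68.9-fold to 1219-fold for miR-34b (34 organs) and at least 102-fold to 1804-fold for miR-34b_v15.0 (29 organs). These bounds hold only with the scaling used here. It multiplied testis by 2.87 to 3.92, pancreas, with the lowest bounds, by 17.5 to 31.1, and aorta, among the highest, by 0.403 to 0.735.

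With the scaling used here the order of organs behind testis was nearly the same for the 3 features. Epididymis (421 ± 82.8 for miR-34c), trachea (239 ± 21.7) and lung (166 ± 51.3) came next, followed by thalamus (156 ± 56.4) and hippocampus (69.4 ± 11.6). Pituitary gland (42.5 ± 11.6), medulla oblongata (42.4 ± 9.06) and the lumbar (39.9 ± 13.8), cervical (38.5 ± 10.3) and pectoral (37.2 ± 4.66) cord formed a group of near-equal level. Ventral prostate belonged to it as well, at 39.4 ± 2.84 with detection on 2 of 3 arrays. Cerebral cortex, at 24.4 ± 18.9, completed the organs with miR-34c on all 3 arrays. Of the 54 pairs of neighbours, 6 did not overlap for miR-34c, with values under the floor set to it: testis over epididymis, epididymis over trachea, trachea over lung, thalamus over hippocampus, hippocampus over pituitary gland, and the other prostate over optic nerve.

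miR-34b followed at 473 ± 62.0 in epididymis, 307 ± 17.5 in trachea, 219 ± 81.4 in lung, 119.9 ± 38.7 in thalamus, 64.4 ± 3.55 in ventral prostate and 55.7 ± 11.9 in hippocampus. It was 40.9 ± 5.52 in medulla oblongata, 40.4 ± 10.5 in pituitary gland, and 38.8 ± 12.9, 37.0 ± 15.5 and 33.8 ± 7.32 in cervical, lumbar and pectoral cord. Ventral prostate and hippocampus overlapped for miR-34b. miR-34b_v15.0 was 641 ± 122 in epididymis, 387 ± 20.4 in trachea, 278 ± 99.95 in lung, 209 ± 78.2 in thalamus, 89.1 ± 11.9 in hippocampus, 65.5 ± 4.59 in ventral prostate and 58.6 ± 16.7 in pituitary gland. It was 56.7 ± 14.1 in medulla oblongata, 51.6 ± 14.0, 51.2 ± 11.3 and 47.7 ± 4.61 in lumbar, cervical and pectoral cord, and 32.0 ± 25.8 in cerebral cortex. Adrenal gland was its last organ with detection on 3 arrays, at a mean under the floor.

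In some brain organs the 3 features varied between rats together, in part apart from miR-34a. In cerebellum miR-34c read 17.2, 65.7 and 6.51, miR-34b 17.6, 51.9 and 8.69 and miR-34b_v15.0 24.1, 89.2 and 7.41. Rat 5 was the highest each time, whereas miR-34a read 1293, 1108 and 1036 in the same RNA. Cerebral cortex of rat 5 was also the highest of its organ, with miR-34c at 14.8, 46.2 and 12.2, and here miR-34a had the same order at 351, 538 and 317. In thalamus rat 4 was highest for both, with miR-34c at 219, 140.3 and 109 and miR-34a at 404, 391 and 367. The hippocampus of rat 5, lowest for miR-34a, was close to the other hippocampi for miR-34c (82.1, 59.2 and 67.0). Each of these contrasts rests on 1 library per rat.

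**Figure D2:**
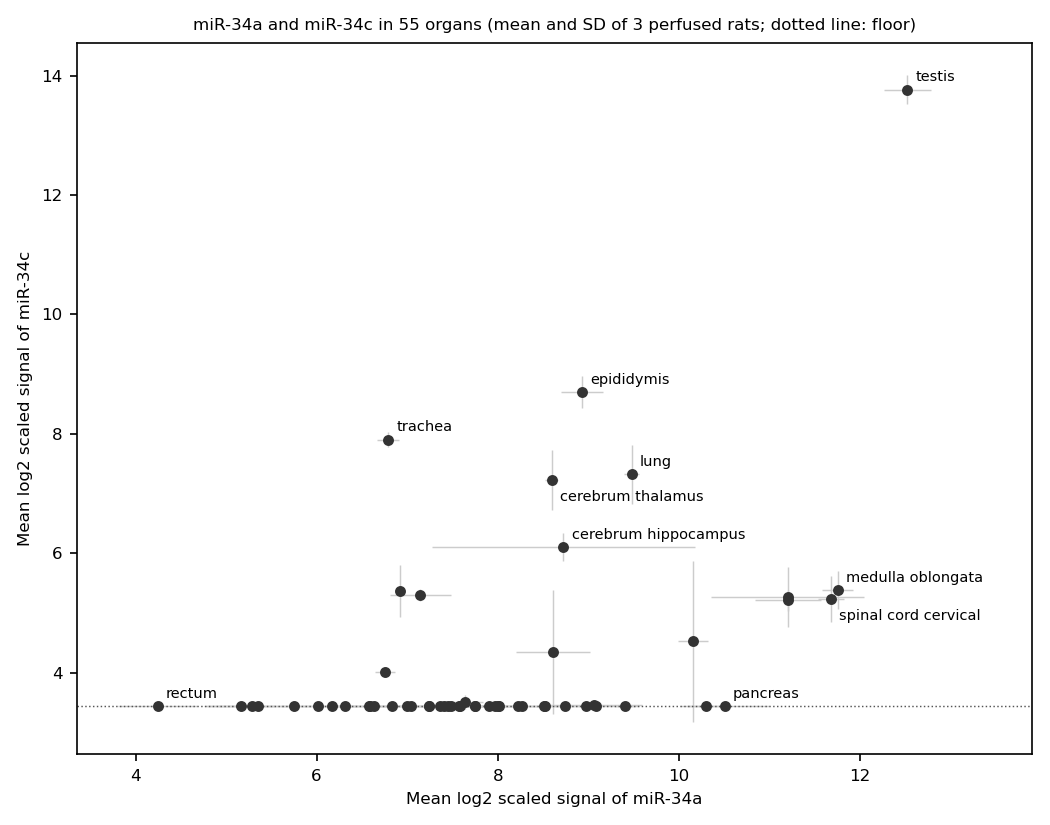
Mean log2 scaled signal of miR-34a (x axis) and miR-34c (y axis) in the 55 organs, 1 point per organ with bars for the SD of 3 perfused rats; the dotted line is the floor of log2 values. Testis is highest on both axes, trachea, epididymis and lung are raised for miR-34c at a low or middle level of miR-34a, and most organs lie on the floor for miR-34c over a wide range of miR-34a.

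miR-449a was the narrowest member. It read 6655, 6487 and 6946 in testis, 197, 154 and 111 in trachea and 82.6, 48.4 and 81.9 in lung, and these were the 3 organs with detection on all 3 arrays. Testis was 43.5-fold above trachea and held 93.0% of the sum over organs. Bone marrow at 85.1, 63.1 and 123 and epididymis at 57.7, 48.5 and 42.1 were detected on 2 of 3 arrays each, as was spleen, whose values were under the floor. In 49 organs it was on no array, and with the scaling used here testis was at least 35.0-fold to 618-fold higher than these. Bone marrow set miR-449a apart from miR-34b and miR-34c, which were not detected there, with means under the floor. In bone marrow both probe sequences for miR-449a gave signal, with means of 36.0 and 145 (n = 3).

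The opposite arms were seen in few organs. miR-34b* was detected on all 3 arrays in testis (629, 446 and 504), epididymis (49.3, 25.4 and 34.3) and lung, where its values lay near or under the floor, and on 2 of 3 in trachea (14.7, 15.7 and 7.95). It was higher in testis than in epididymis by 3.90 log2 units. miR-34a* was detected on all 3 arrays in medulla oblongata (25.1, 27.6 and 25.2), cervical cord (23.7, 29.2 and 24.3) and lumbar cord (9.13, 27.5 and 21.7), which are organs near the top for miR-34a. In testis miR-34a* read 17.4, 10.8 and 19.6 and was detected on 0 arrays. miR-34c* met the rule for detection in 0 organs, but 1 of its 4 probe sequences read 248, 226 and 244 in testis. miR-449a*, miR-449c-5p and miR-449c-3p were detected nowhere.

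Testis, epididymis, trachea and lung hold germ cells or ciliated epithelium, and the comparison between them asked how the members divide over these cell sources. These organs were chosen with results of these data known, and the paper lists the same organs as high for miR-34b. The tests below are therefore not of organs chosen beforehand. Every member was higher in testis than in each of the other 3 organs. Testis exceeded trachea by 5.74 ± 0.15 log2 units (SE) for miR-34a, 5.43 ± 0.26 for miR-34b, 5.66 ± 0.25 for miR-34b_v15.0, 5.87 ± 0.24 for miR-34c and 5.48 ± 0.24 for miR-449a, or 43.0-fold to 58.3-fold. In limma's test 5 of 5 members passed (adjusted p at most 7.07e-09), where 56.4% of the 220 miRNAs tested were higher in testis and the median difference over all 220 was 0.71. These 5 differences lay within 0.44 log2 units of each other, so that testis over trachea was about equal for miR-34a and the rest.

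Lung divided the members. Testis exceeded lung by 3.05 ± 0.15 for miR-34a, which is 8.26-fold, but by 5.99 ± 0.26 for miR-34b, 6.21 ± 0.25 for miR-34b_v15.0, 6.45 ± 0.24 for miR-34c and 6.60 ± 0.24 for miR-449a, between 63.8-fold and 97.1-fold. All 5 passed (adjusted p at most 8.43e-09), against 52.7% of the miRNAs tested that were higher in testis and a median of 0.46. Without scaling miR-34a was at -0.12 between testis and lung (adjusted p = 0.68), while the other 4 members were higher in testis in every setting tried.

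Against epididymis, testis was higher by 3.59 ± 0.15 for miR-34a, 4.81 ± 0.26 for miR-34b, 4.95 ± 0.25 for miR-34b_v15.0, 5.06 ± 0.24 for miR-34c and 7.09 ± 0.24 for miR-449a. The last is 137-fold and, with values under the floor raised to it, was the largest difference in favour of testis among the 220 miRNAs. On the same values miR-34c ranked second. For miRNAs not detected in epididymis the difference is only a lower bound, so these ranks hold for the floored values alone. Among these, miR-202* stood at 4.98, with 7.68, 6.56 and 7.02 in epididymis, all under the floor. All 5 members passed (adjusted p at most 3.85e-08), against 46.8% of those tested that were higher in testis, with a median of 0.18. Testis and epididymis lay on 1 slide in rats 4 and 5. Within those slides miR-34c differed by 5.02 and 4.64 log2 units and miR-449a by 6.85 and 7.06, close to the 5.53 and 7.37 of rat 6.

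**Figure D3:**
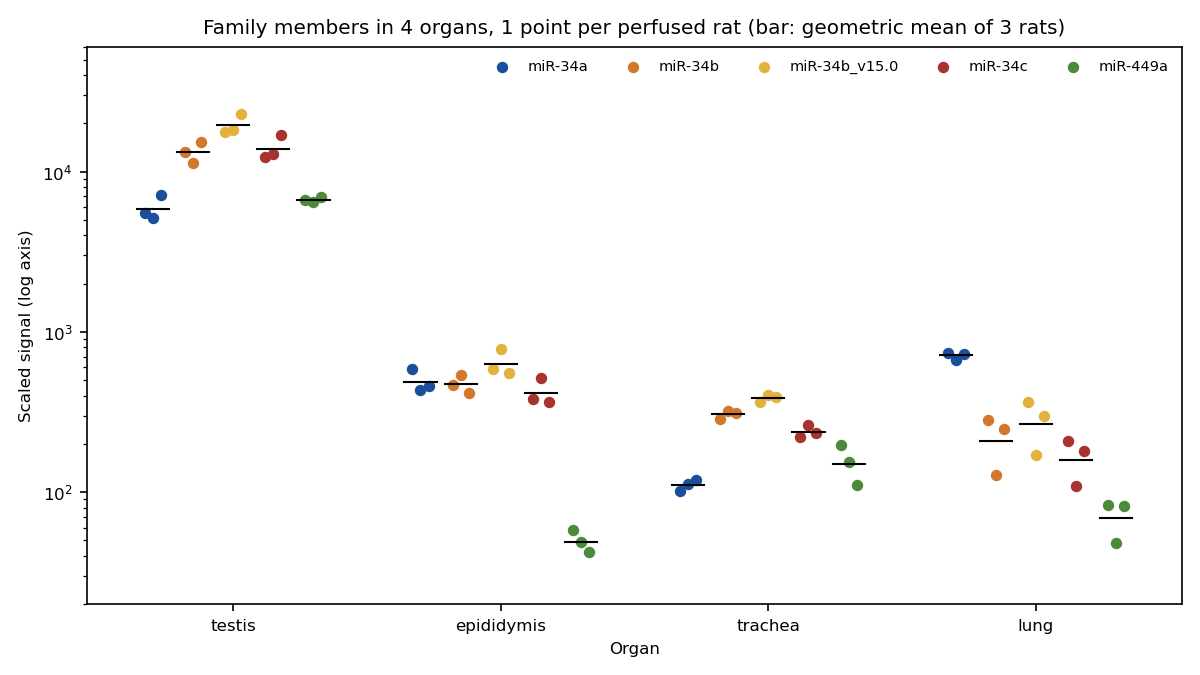
Scaled signal (log axis, arbitrary units) of the 5 members in testis, epididymis, trachea and lung, 1 point per perfused rat with a bar at the geometric mean of 3 rats; miR-449a in epididymis was detected on 2 of 3 arrays. Testis is highest for each member, miR-34a is lowest in trachea, and miR-449a has its lowest mean in epididymis, where it overlaps lung.

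Among trachea, lung and epididymis the differences were smaller for miR-34b, miR-34b_v15.0, miR-34c and miR-449a, and the scaling decided part of the order for the first 3 of these. miR-34a was 6.46-fold lower in trachea than in lung (-2.69 ± 0.15, adjusted p = 7.52e-08). With values under the floor raised to it, only 3 of the 220 miRNAs showed a difference in that direction that was larger. miR-449a was higher in trachea (1.12 ± 0.24, adjusted p = 0.00306). For miR-34b (0.57 ± 0.26, adjusted p = 0.101), miR-34b_v15.0 (0.55 ± 0.25, 0.107) and miR-34c (0.58 ± 0.24, 0.0696) the test was not passed, and the unadjusted 95% interval for miR-34c ran from 0.05 to 1.11. So 2 of 5 members passed, beside 46.4% of all miRNAs tested in either direction. The lung of rat 5 was low for miR-34b (283, 127 and 246) and miR-34c (209, 109 and 179.6). Without rat 5 the differences were 0.18 for miR-34b, 0.20 for miR-34b_v15.0 and 0.23 for miR-34c, and with scaling over all miRNAs they turned to -0.14, -0.17 and -0.13. By normexp miR-34b (0.55, adjusted p = 0.0445) and miR-34c (0.56, 0.0233) passed, as they did with all organs of perfused rats in the fit (adjusted p = 0.0276 and 0.0318), and with miRNAs detected on all arrays miR-34b, miR-34b_v15.0 and miR-34c passed (adjusted p from 0.0274 to 0.0451). Without rat 5 the miR-449a difference was 0.85 with an adjusted p of 0.069, and without scaling it was 0.54 with an adjusted p of 0.21. With scaling over all miRNAs miR-449a lost its call as well. miR-34a stayed below lung in trachea in every setting.

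Between trachea and epididymis the members went both ways. miR-34a (-2.14 ± 0.15), miR-34b (-0.61 ± 0.26), miR-34b_v15.0 (-0.71 ± 0.25) and miR-34c (-0.80 ± 0.24) were lower in trachea, and miR-449a (1.61 ± 0.24) was 3.06-fold higher there. All 5 passed, beside 78.2% of those tested, with miR-34b at the edge (adjusted p = 0.0498). With the rat as a replicate block the adjusted p of miR-34b was 0.061. Without rat 4, and likewise without rat 6, miR-34b, miR-34b_v15.0 and miR-34c did not pass (adjusted p from 0.059 to 0.19). Their direction also turned with the scaling, to between 0.29 and 0.48 when arrays were scaled over all miRNAs and between 0.72 and 0.91 without scaling. That of miR-34a and miR-449a did not.

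Between lung and epididymis miR-34a was higher in lung (0.55 ± 0.15, adjusted p = 0.00599), miR-34b (-1.18 ± 0.26), miR-34b_v15.0 (-1.26 ± 0.25) and miR-34c (-1.38 ± 0.24) were lower, and miR-449a (0.49 ± 0.24, adjusted p = 0.0928) did not pass. That is 4 of 5, beside 74.1% of all miRNAs tested. Without rat 5 miR-34b was at -0.73, miR-34b_v15.0 at -0.79 and miR-34c at -0.95, each still passing, and miR-449a was at 0.74 without rat 5 and at 0.26 without rat 6. Under scaling over all miRNAs the 3 features of miR-34b and miR-34c turned to between 0.43 and 0.63. Which of lung and epididymis holds more miR-34b and miR-34c per unit of RNA was thus not settled by these arrays. The differences of miR-34a and miR-449a grew in the same settings, to 2.36 and 2.30 with scaling over all miRNAs, 1.51 and 1.82 by quantile normalization, 1.88 and 1.88 in the authors' table and 2.65 and 2.59 without scaling, and each of these passed. By normexp miR-34a was at 0.37, and miR-449a turned to -0.56 and passed in that direction (adjusted p = 0.00118).

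**Figure D4:**
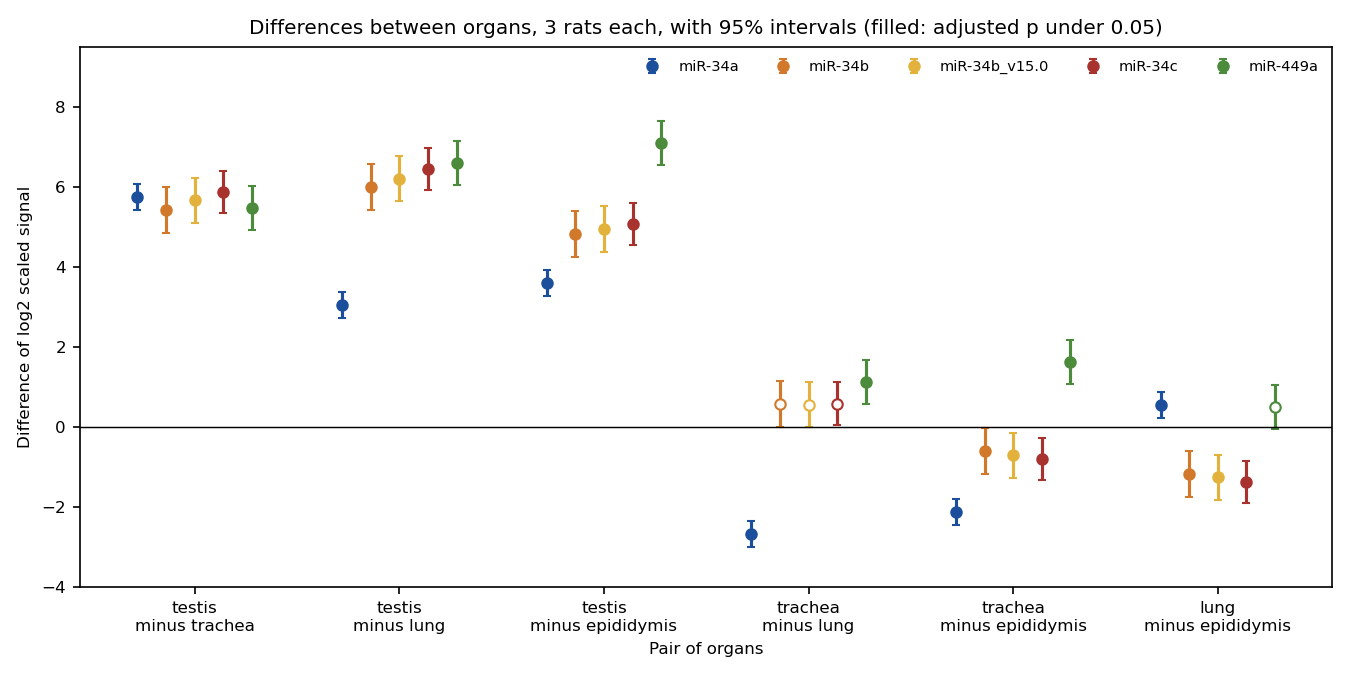
Difference of log2 scaled signal for the 6 pairs of organs, with 95% intervals from limma over 3 rats per organ; filled points passed an adjusted p under 0.05. The 5 members lie together for testis minus trachea, and miR-34a lies apart from miR-34b, miR-34b_v15.0 and miR-34c where lung is compared. For lung minus epididymis miR-34a and miR-449a lie together.

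Ratios between members of the same array are free of the scaling. The ratio of miR-34c to miR-34a was higher in testis than in lung by 3.40 ± 0.23 log2 units, in trachea than in lung by 3.27 ± 0.23, in testis than in epididymis by 1.47 ± 0.23 and in trachea than in epididymis by 1.34 ± 0.23. Between testis and trachea it differed by 0.13 ± 0.23, with a 95% interval from -0.35 to 0.62. The ratio of miR-449a to miR-34a differed by -0.06 ± 0.24 between lung and epididymis. This closeness depended on the background correction, since by normexp miR-34a was higher in lung and miR-449a higher in epididymis. On the ratio of miR-34c to miR-34a testis and trachea stood together, epididymis lower and lung lowest. The ratio to miR-34a differed over the 4 organs for 4 of 4 members, but also for 100% of the 219 miRNAs tested, so this count sets no member apart. Against miR-34c the ratio differed for miR-34a and miR-449a and not for miR-34b (adjusted p = 0.38) or miR-34b_v15.0 (0.85). Since 99.1% of the 219 miRNAs passed that test, miR-34b and miR-34b_v15.0 were the 2 that did not. Their differences from miR-34c between any 2 of the 4 organs ran from -0.45 to 0.20 log2 units, and the widest 95% interval reached -1.04. With the arrays of all organs of perfused rats in the fit, miR-34b did differ from miR-34c (adjusted p = 3.62e-04).

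miR-449a kept to miR-34c in testis, trachea and lung and fell away in epididymis. The ratio of miR-449a to miR-34c was 2.03 ± 0.31 log2 units lower in epididymis than in testis, 2.42 ± 0.31 lower than in trachea and 1.87 ± 0.31 lower than in lung. Between testis and lung it differed by 0.15 ± 0.31, between testis and trachea by -0.39 ± 0.31 and between trachea and lung by 0.54 ± 0.31, each with a 95% interval that held 0. In epididymis 1 of 3 arrays did not detect miR-449a. With normexp background correction the widest difference of this ratio between any 2 of the 4 organs was 1.26 log2 units, and the ratio still differed over the organs (adjusted p = 6.16e-06).

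The 2 probe sequences of each member gave the same direction in all 6 pairs of organs. Their differences lay within 0.38 log2 units of each other for miR-34a and within 0.27 for the other members. For miR-449a the brighter sequence read 11739.5 in the mean in testis and the dimmer one 1653, so that absolute brightness says little here while the contrasts do.

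Markers of the cells these organs can hold were read on the same arrays. Of 11 X-linked miRNAs known from germ cells, 6 were detected on all 3 arrays in testis (summed level 8162 to 9928) and 6 in epididymis (1909 to 3140), against 0 in trachea and lung, where the sums were at most 2.22. In epididymis the 6 stood at 31.8%, 23.1% and 31.0% of their summed testis level in rats 4, 5 and 6, and singly from 15.2% to 44.1%, 10.6% to 30.4% and 14.9% to 43.6%. The members stood lower, each against its own testis level, with miR-34a at 10.5%, 8.44% and 6.39%, miR-34b at 3.50%, 4.74% and 2.72%, miR-34c at 3.08%, 4.01% and 2.16%, and miR-449a at 0.867%, 0.748% and 0.606%. Every rat had the order germ cell markers, miR-34a, miR-34b, miR-34c and miR-449a. The part of germ cells in the epididymal signal was not tested.

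The epithelial miRNAs of the miR-200 family were not seen in testis, with 0 of 5 detected (sum 10.3 to 26.4), and 5 of 5 were detected in trachea (2491 to 3721), lung (1202 to 1469) and epididymis (10803 to 13492). The miR-200 family was thus higher in epididymis than in testis, while the members were higher in testis. The part of epithelium in the members' signal was not tested. miR-202*, a gonad marker, was the 1 of 2 gonad miRNAs detected in testis, at 319, 317 and 398, and neither was detected in trachea, lung or epididymis. Cartilage miRNAs (2 of 2 in each organ) were highest in trachea (8378 to 9756, against 193 to 457 elsewhere), and endothelial miRNAs, with 2 of 2 detected but 1 of 2 in testis, in lung (3885 to 5318, against 463 to 687). Squamous epithelial miRNAs were found in epididymis (512 to 639) and trachea (172 to 258), 1 of 2 on all 3 arrays in lung (19.4 to 26.8) and 0 of 2 in testis. Leukocyte miRNAs, with 4 of 4 detected in trachea, lung and epididymis and 2 of 4 in testis, ranged from 458 to 1283. 2 lists differed between rats within an organ: skeletal muscle miRNAs in trachea, from 167 to 1716 with rat 6 highest, and red blood cell miRNAs in lung, from 17.7 to 1123, and testis, from 15.1 to 699. In the other organs skeletal muscle miRNAs summed to 39.2 to 329 and red blood cell miRNAs to 17.8 to 52.3. The trachea of rat 6 had the lowest miR-449a and the highest miR-34a of the 3 tracheae, and the part of muscle in this was not tested.

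The pattern over all 55 organs placed miR-34c with miR-34b and left miR-34a apart. The Pearson correlation of organ means of log2 signal with miR-34c was 0.997 for miR-34b_v15.0 and 0.993 for miR-34b, the first and second of 344 miRNAs compared, and 0.824 for miR-449a, the third. By ranks (Spearman) these were 0.881, 0.863 and 0.284, so that the likeness of miR-449a was far weaker there. With miR-34a it was 0.470 (rank 28). The points share their arrays and the floor, at which most organs lie for these members, and the values are a description. Leaving out testis lowered miR-449a to 0.582 and miR-34a to 0.329, and left miR-34b_v15.0 at 0.996 and miR-34b at 0.987. The median correlation with miR-34c over the 344 miRNAs was 0.06. Outside the family the most alike were miR-471* (0.800), miR-471 (0.799) and miR-201_v15.0 (0.798), which fell to 0.505 each without testis. All 3 were detected in testis and epididymis, with miR-471 at 910, 741 and 894 and at 143, 78.3 and 171, and were not detected in trachea, lung or medulla oblongata.

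Over organs miR-34a was most alike to miR-100 (0.634), miR-338 (0.632) and miR-181b (0.576), beside its own arm miR-34a* (0.633). Without testis these were 0.614, 0.661, 0.610 and 0.611. Their levels had high points in common with it in the nervous system, where miR-338, known from myelin-forming cells, read 2952, 3923 and 4171 in medulla oblongata, and miR-181b 319, 353 and 398. miR-100 was 518, 606 and 535 there and 712, 563 and 672 in testis. In testis miR-338 was far below its medulla level, at 226, 102 and 247, and of the 3 only miR-100 had a higher mean in testis than in medulla oblongata, as miR-34a did. miR-449a was most alike to miR-34b* (0.878), then to miR-881* (0.860), miR-471* (0.832) and miR-743a* (0.828). Of the last 3, miR-881* and miR-743a* were detected on all 3 arrays in testis alone, and without testis their correlations were 0.343 and 0.203.

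The comparison of perfused with not perfused rats asked whether the levels differ between these sampling conditions, and no member passed its test. The perfused lungs still differed in miR-451, a red blood cell miRNA, at 17.5, 422 and 1080 in rats 4, 5 and 6. The absence of calls in lung therefore does not show that blood leaves the members unchanged. In lung miR-34a read 741, 668 and 732 with perfusion and 715, 769.8 and 713 in rats 1, 2 and 3 without it. miR-34c read 209, 109 and 179.6 against 189, 145 and 289, miR-34b 283, 127 and 246 against 244, 173 and 389 and miR-449a 82.6, 48.4 and 81.9 against 80.2, 65.2 and 132. The groups overlapped for each member. The log2 differences were -0.04 for miR-34a, -0.30 for miR-34b, -0.32 for miR-34b_v15.0, -0.32 for miR-34c and -0.36 for miR-449a. In limma 0 of 5 members passed (adjusted p = 0.95 each), as did 0 of 171 miRNAs (0%), of which 11 had an unadjusted p under 0.05. In exact two-sided permutation tests p was between 0.5 and 0.7, where 3 against 3 rats cannot go below 0.1. The interval for miR-34a ran from -0.19 to 0.11, while that of miR-34c, from -1.30 to 0.67, leaves room for a change of over 2-fold.

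**Figure D5:**
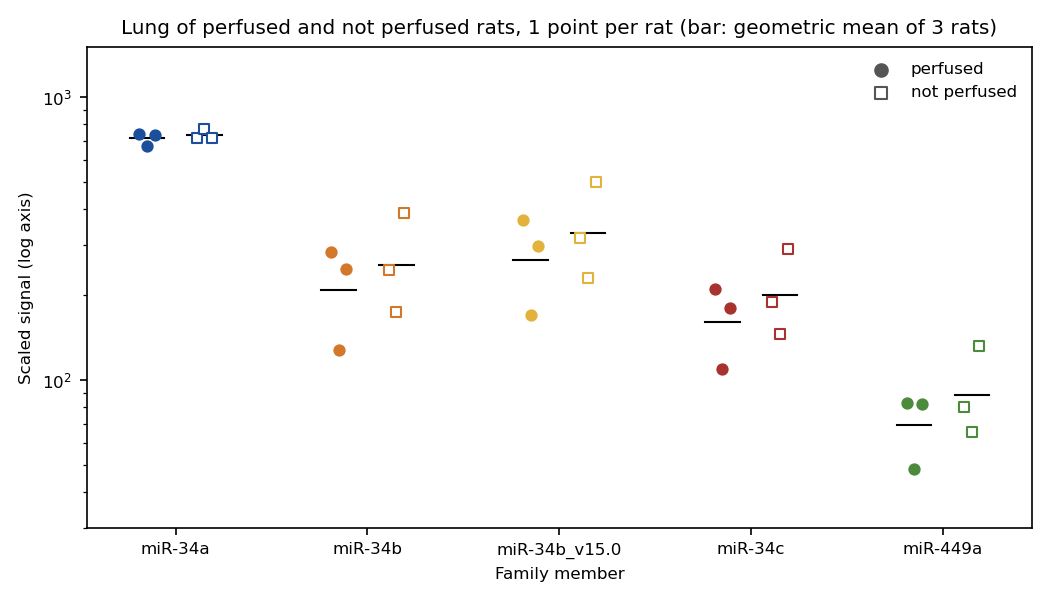
Scaled signal (log axis, arbitrary units) of the 5 members in the lungs of 3 perfused rats (filled) and 3 rats that were not perfused (open), 1 point per rat with a bar at the geometric mean. miR-34a keeps within 1.15-fold over the 6 lungs, whereas miR-34b, miR-34b_v15.0, miR-34c and miR-449a spread over 2.65-fold to 3.06-fold, with the same rats high or low for each.

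The 6 lungs showed a spread that miR-34a did not share. miR-34a ranged from 668 to 769.8 (1.15-fold), but miR-34b ranged 3.06-fold, miR-34b_v15.0 2.94-fold, miR-34c 2.65-fold and miR-449a 2.72-fold. Rat 3 was highest and rat 5 lowest for all 4 of these. Red blood cell miRNAs also differed among the perfused lungs, with rat 6 highest and rat 4 lowest. The part of blood in the members' spread was not tested.

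In the other organs with both conditions miR-34a was the 1 member detected and tested. It was 0.46 log2 units higher with perfusion in liver, with 117, 93.8 and 89.3 against 73.2, 64.6 and 79.7, and these values did not overlap (adjusted p = 0.45, beside 0.962% of 104 miRNAs called). In kidney it was lower by 0.49 (adjusted p = 0.97; 0.699% of 143 called), with 80.1, 60.8 and 77.2 against 83.8, 159.8 and 77.3. The kidney of rat 2 stood above the rest. In heart atrium the difference was 0.11 (adjusted p = 1; 1.59% of 126 called) and in heart interventricular septum 0.21 (adjusted p = 0.9996; 0.769% of 130 called). Rat 4 was scanned on the day of rats 1, 2 and 3. On that day alone the perfused rat differed for miR-34a by 0.69 (liver), -0.34 (kidney), 0.02 (lung), -0.21 (heart atrium) and -0.13 (heart septum). The interaction of perfusion and organ was passed by 0 of 5 members (adjusted p = 0.87 for miR-34a and 1 for the others) and by 0 of 191 miRNAs (0%), of which 8 had an unadjusted p under 0.05.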

How the data were processed

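The deposited scanner files of 180 1-color Agilent arrays (Feature Extraction 10.7.3, from the submitters' processing notes) were used. Per the file headers they hold a background-subtracted signal intensity for each spot. The authors also deposited a table of normalized intensities, used only as an alternative. Of its rows 715 were matched to the 717 miRNAs and 21 control rows were not used, and its values are 1.88 times those given here in the median. Outlier spots were left out, spots were averaged per probe sequence and then per miRNA, and each array was multiplied so that the 75th percentile of the 37 miRNAs seen on every array became 2118, before values were floored at 10.8 and log2 transformed. The arrays' number limits the precision. A suffix such as v15.0 is the array's own and was left as it is.

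Organ pairs and ratios were tested with limma on the 12 arrays of 4 organs and perfusion on the 6 arrays of each organ, with Benjamini-Hochberg adjustment over all miRNAs tested (two-sided, threshold 0.05). The interaction used 30 arrays with rat as a random block. Named were the 5 members, the other arms, the 3 miRNAs outside the family most alike to miR-34a, miR-34c and miR-449a, and the 4 organs. These members, the 4 organs and all marker lists were chosen with earlier results of these data known. A number names 1 rat, so organs are paired: residuals of different organs correlated by 0.051, 0.096 and 0.069 within rats 4, 5 and 6 and by -0.035 between rats, and over the 4 organs alone by -0.063, 0.197 and -0.086. The main fits of organ pairs and ratios held no term for the rat and so did not use the pairing. A block for the rat was run only as an alternative. The rats are separate animals, but each organ is 1 extract. The alternatives changed the scaling, background, floor, filter, probe summary, detection rule, blocks and rats. Background correction by normexp used the median spot signal, since these files hold no mean spot signal. The fits and the correlations were tested on simulated data. Versions were R 4.3.3, limma 3.58.1, Python 3.11.15, numpy 2.4.6, pandas 2.3.3, scipy 1.17.1 and matplotlib 3.10.9.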

Additional observations from a re-analysis of the deposited data

How the results depend on the processing

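The excess of testis over trachea, lung and epididymis stayed called for every member tested in every alternative, except for miR-34a against lung without scaling (-0.12). With miRNAs detected on all arrays 4 members were tested, as miR-449a was not. The order among trachea, lung and epididymis depended on the scaling for miR-34b, miR-34b_v15.0 and miR-34c. Alternatives without scaling or with scan day as a term were chosen after the data were seen. Signal over background limits miR-449a, which was seen in few organs.

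Trachea minus epididymis turned for miR-34b, miR-34b_v15.0 and miR-34c to 0.48, 0.38 and 0.29 (scaling over all miRNAs), 0.37, 0.0369 and 0.13 (quantile), 0.65, 0.55 and 0.47 (authors' table) and 0.91, 0.81 and 0.72 (no scaling). Lung minus epididymis turned to 0.63, 0.55 and 0.43 (scaling over all miRNAs) and 0.92, 0.84 and 0.72 (no scaling), to 0.15 and 0.0701 for miR-34b and miR-34b_v15.0 (authors' table), and to -0.56 for miR-449a (normexp, adjusted p = 0.00118). Trachea minus lung turned to -0.14, -0.17 and -0.13 (scaling over all miRNAs), and to -0.0079 and -0.0297 for miR-34b and miR-34b_v15.0 (no scaling).

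Of 5 members, 2 were called for lung minus epididymis by quantile normalization and in the authors' table, and 2 for trachea minus epididymis in these and when scaled over all miRNAs. For trachea minus lung 1 was called when scaled over all miRNAs or unscaled, 4 by normexp or with all organs of perfused rats in the fit, and 4 of the 4 tested with miRNAs detected on all arrays. Leaving out 1 rat gave 2 to 5 members for trachea minus epididymis (2 without rat 4 or without rat 6) and 1 to 2 for trachea minus lung (1 without rat 5). The calls over all miRNAs were then 158 to 169 and 89 to 96. Across the alternatives these calls ranged from 87 to 203 for lung minus epididymis and from 91 to 200 for trachea minus epididymis. For trachea minus lung they ranged from 65 to 155. In the main fits the shares called were 74.1%, 78.2% and 46.4% of 220 miRNAs. With miRNAs detected on all arrays, 1 member differed in its ratio to miR-34c, as miR-449a was not tested there. That filter also lowered the calls over all miRNAs to 87 (lung minus epididymis), 84, 91 and 88 (testis minus epididymis, lung and trachea), 91 (trachea minus epididymis) and 65 (trachea minus lung), from 163, 166, 164, 175, 172 and 102, and to 105 and 103 in the ratios to miR-34a and miR-34c. For trachea minus lung scaling over all miRNAs gave 155 calls and normexp 67.

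With the rat as a replicate block, miR-34b lost its call for trachea minus epididymis (adjusted p = 0.061), which left 4 of 5 members, and the block changed no other call of a member.

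By the scanner's own detection call miR-34b, miR-34b_v15.0, miR-34c and miR-449a were in 29, 25, 25 and 10 organs, on at least 1 of 3 arrays in 21, 26, 19 and 6, and without 1 rat in 12 to 16, 14 to 19, 12 to 14 and 3 to 5.

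Perfusion had small differences that turned in lung for miR-34a to 0.13 (scaling over all miRNAs), 0.0312 (authors' table), 0.0431 (no scaling) and 0.0167 (scan day as a term), for miR-34b to 0.16 (scan day), and with scan day to 0.15 for miR-34b_v15.0, 0.068 for miR-34c, and for miR-34a to -0.21 in atrium and -0.13 in septum. Leaving out 1 rat gave -0.0662 to 0.00823 in lung for miR-34a (above 0 without rat 5) and -0.57 to 0.0543 for miR-34b (above 0 without rat 3 and without rat 5). No member was called in any perfusion alternative. A random block for slide could not be fitted on 6 arrays and was run on all 30.

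The correlations of miR-34a with miR-34c were 0.316 (scaling over all miRNAs), 0.372 (higher floor), 0.312 (authors' table) and 0.356 (Spearman), and with miR-449a 0.277, 0.346, 0.258 and 0.121, with 0.225 for a lower floor and 0.248 without scaling. With miR-34c they were 0.995, 0.995, 0.995 and 0.863 for miR-34b (lower floor 0.981, no scaling 0.996), 0.995, 0.994, 0.995 and 0.881 for miR-34b_v15.0 (lower floor 0.996), and 0.891, 0.910, 0.869 and 0.284 for miR-449a (lower floor 0.720).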
